A study of Homo sapiens with 18 samples.

Results

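The genes described here are 36 named members of glycolysis and of the response to low oxygen, taken by gene symbol from the deposited tables of RNA counts, which list 60622 genes. All 36 were found. By role they comprise 3 transporters of glucose and lactate, 9 enzymes of upper glycolysis, 4 enzymes that control the flow of glucose carbon, 7 enzymes of lower glycolysis and 13 other genes of the hypoxia response. RNA was sequenced from the H1299 line, cultured human lung tumour cells (non-small cell type) that are known to make no p53 protein of their own. The libraries numbered 18, in 6 groups of 3. In induced cells, which made doxycycline-inducible wild-type p53 joined to FKBP12F36V and an HA tag, the groups received the p300/CBP compound (AceTAG p300/CBP-1), the PCAF/GCN5 compound (AceTAG PCAF/GCN5-4) or the solvent DMSO. The same 3 treatments were given to non-induced cells. Treatment lasted 24 h in every group, and the labels give the genotype of all of them as wt. AceTAG compounds are made to bring an acetyltransferase, p300/CBP for one and PCAF/GCN5 for the other, to a protein that carries the FKBP12F36V tag. The design asks how both compounds change the transcriptome. The labels give no dose, so compounds are compared at doses not known to match. They do not say whether non-induced cells carried the construct or received doxycycline, nor whether replicates were separate cultures, so p-values measure the spread between these libraries only.

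Glycolysis breaks glucose down to pyruvate, and tumour cells often run it at a high rate and release the product as lactate. When oxygen is low, hypoxia-inducible factors bind the DNA core ACGTG near their targets and raise glucose transporters, glycolytic enzymes and genes of blood vessel growth, pH control and mitophagy. The acetyltransferases p300 and CBP are known coactivators of these factors, and p53 is known to restrain glycolysis, in part through its target TIGAR. The labels name no oxygen treatment.

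Library totals ran from 9.1 to 29.2 M counts, with the non-induced DMSO library 3 the shallowest and the other 17 at 19.3 M or more. Levels are given as CPM, counts scaled to a library total of 1000000. The line's own markers were present (KRT8 68.6 to 98.7, KRT18 154 to 315 and VIM 2366 to 3989 CPM), while PTPRC was at 0 in 18 libraries and 8 further markers of blood, vessel, fibroblast and liver cells reached at most 1.53 CPM. One library stood apart. In the third induced DMSO library, 9 of 32 members differed by more than 0.3 on the log2 scale from the mean of the other induced DMSO libraries, against 0 to 4 members in each of the other 17 libraries. The share of all genes beyond this bound is not given. There ADM read 16.1 CPM against 9.49 in its partners' mean, EGLN1 43.8 against 29.5, TPI1 1757 against 1319 and GAPDH 4884 against 7169 CPM. Mitochondrial genes took 0.714% of its counts, against 1.84% and 2.14% in its partners. Main counts of calls that use induced DMSO cells, and medians where given, are therefore shown with and without this library. Without it, induced DMSO rests on its partners only, and the choice to leave it out was made on the members' own values.

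**Figure D1:**
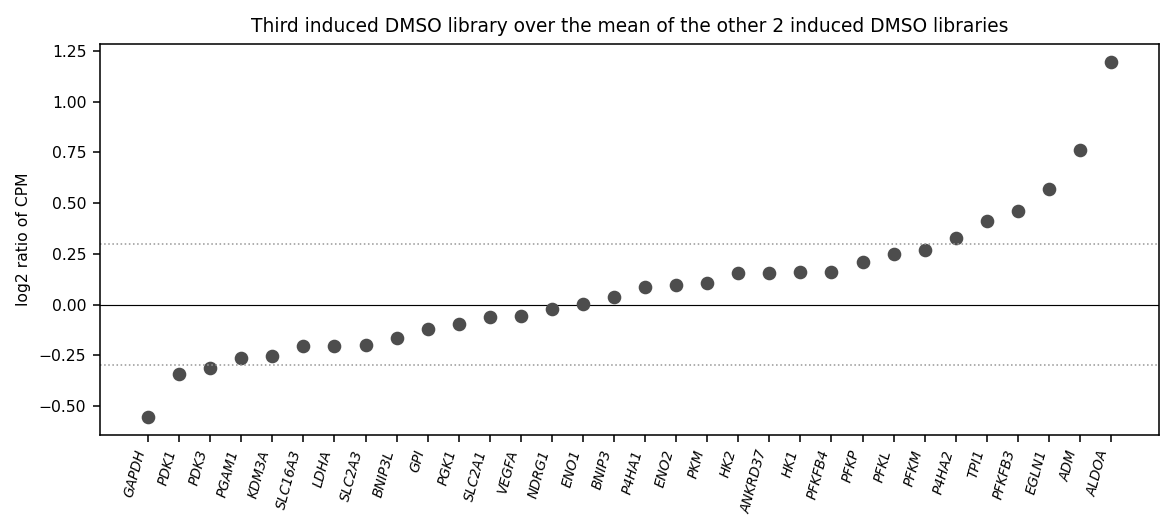
Level of each member in the third induced DMSO library, as the log2 ratio of its CPM to the mean CPM of the other induced DMSO libraries; dotted lines mark 0.3 in either direction. ALDOA, ADM, EGLN1, PFKFB3, TPI1 and P4HA2 lie above the upper line, and GAPDH, PDK1 and PDK3 lie below the lower one.

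Per length, the members tested spanned levels from GAPDH at the top to ALDOC at the bottom. On the scale of CPM per kb of the deposited gene length, the median over 18 libraries was 3115 for GAPDH, 491 for ENO1, 465 for TPI1, 395 for PKM, 182 for LDHA and 146 for PGK1. These are enzymes of lower glycolysis, apart from TPI1, which interconverts the triose products of upper glycolysis. The ranges of ENO1, TPI1 and PKM overlapped, so their order is not fixed by these libraries. PGAM1 (65.9), the mitophagy receptor BNIP3L (44.3), PFKP (36.5) and the glucose transporter SLC2A1 (35.4 CPM per kb) came next. At its lower end stood PFKFB4 (1.41), PDK3 (1.31), NDRG1 (0.846) and ALDOC (0.195 CPM per kb). Together the members took 1.80% ± 0.033 of counts with the p300/CBP compound, 1.79% ± 0.049 with the PCAF/GCN5 compound and 1.82% ± 0.108 with DMSO in induced cells. In non-induced cells the shares were 1.89% ± 0.065, 1.91% ± 0.098 and 1.97% ± 0.015 in the same order (SD, n = 3 each). Without GAPDH, the member with the highest level, the means were 1.04%, 1.08% and 1.18% in induced cells and 1.13%, 1.19% and 1.22% in non-induced cells, in that order of treatments.

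**Figure D2:**
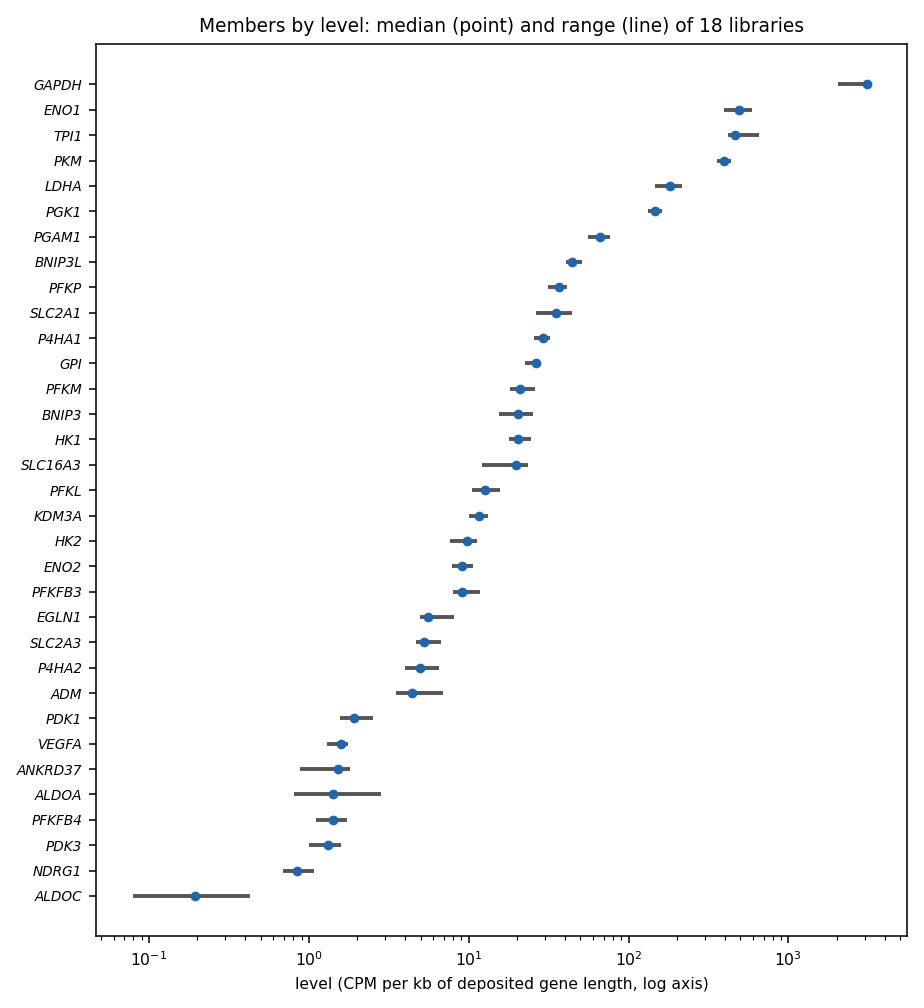
Levels of the 33 members tested in at least 1 comparison, in CPM per kb of deposited gene length on a log axis; points are medians and lines ranges over 18 libraries. GAPDH stands above all others, and ALDOC is the lowest at 0.195 CPM per kb.

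Some members could not be followed. CA9, the tumour carbonic anhydrase, had no count in any library, where 3 counts would be 0.103 to 0.331 CPM. Its sister CA12 had no count in 15 of 18 libraries (6 counts in all), and the oxygen-sensing hydroxylase gene EGLN3 had none in 9 (21 counts in all). These 3 were never tested. ALDOC had 5 to 25 counts and was tested in 7 of 9 comparisons. ALDOA, the main aldolase of most tissues, was listed with 56 to 257 counts only. Of its exon bases 43.3% lie in another gene on the same strand by the deposited gene positions, so its values are uncertain. EGLN1 shares 55.8% of its exon bases in this way, with a gene that had at most 1 count. GAPDH has 62 pseudogenes named after it and BNIP3 has 39, which could take or give reads in the authors' counting. Whether the counting used strand is not given in the sources used here, so ANKRD37, which overlaps UFSP2 on the opposite strand over 40.3% of its exon bases, is uncertain too.

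For 32 of the 36 members the RefSeq table of GRCh38.p14 holds a promoter window, 250 bases before to 50 after the gene's start. SLC2A3, VEGFA, BNIP3L and NDRG1 had none. The hypoxia core ACGTG, searched on both strands, lay in 14 of 32 windows (43.8%), against 21.4% of all 35116 windows and 25.6% of the 15223 windows of genes tested here. It overlaps itself on the other strand where the letters read CACGTG. A related core, GCGTG, lay in 15 of 32 member windows, which is 46.9%, against 36.5% of all windows and 48.9% of those of genes tested. A match is a run of letters and not a site known to be used. The windows of LDHA (chr11:18394313-18394612, plus strand) and BNIP3 (chr10:131981874-131982173, minus strand) are shown because both genes hold the core as CACGTG and both fell with the p300/CBP compound in non-induced cells. Those of ENO1 (chr1:8878637-8878936, minus strand) and SLC2A1 (chr1:42958819-42959118, minus strand) are shown because both also fell there and hold no ACGTG in this window. The related core GCGTG, on either strand, lies in all 4 windows: 2 times in ENO1, 1 in SLC2A1, 1 in LDHA and 4 in BNIP3. Capitals mark ACGTG only, on either strand, joined where matches overlap.
LDHA: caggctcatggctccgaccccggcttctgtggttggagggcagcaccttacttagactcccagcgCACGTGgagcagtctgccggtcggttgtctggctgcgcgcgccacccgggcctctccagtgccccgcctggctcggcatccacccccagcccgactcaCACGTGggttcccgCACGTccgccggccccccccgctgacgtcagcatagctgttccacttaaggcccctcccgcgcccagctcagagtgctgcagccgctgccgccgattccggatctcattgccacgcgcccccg
BNIP3: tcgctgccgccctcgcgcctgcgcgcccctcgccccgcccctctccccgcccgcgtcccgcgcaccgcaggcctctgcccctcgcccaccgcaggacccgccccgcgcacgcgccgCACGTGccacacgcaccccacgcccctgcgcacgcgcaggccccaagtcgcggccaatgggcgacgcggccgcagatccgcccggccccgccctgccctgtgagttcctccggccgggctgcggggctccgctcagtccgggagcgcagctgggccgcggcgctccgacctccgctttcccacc
ENO1: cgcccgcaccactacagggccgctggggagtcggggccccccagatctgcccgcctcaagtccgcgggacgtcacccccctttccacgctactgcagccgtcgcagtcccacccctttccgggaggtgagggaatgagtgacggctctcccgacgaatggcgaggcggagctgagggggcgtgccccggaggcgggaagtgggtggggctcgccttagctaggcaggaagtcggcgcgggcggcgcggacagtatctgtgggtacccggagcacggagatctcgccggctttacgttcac
SLC2A1: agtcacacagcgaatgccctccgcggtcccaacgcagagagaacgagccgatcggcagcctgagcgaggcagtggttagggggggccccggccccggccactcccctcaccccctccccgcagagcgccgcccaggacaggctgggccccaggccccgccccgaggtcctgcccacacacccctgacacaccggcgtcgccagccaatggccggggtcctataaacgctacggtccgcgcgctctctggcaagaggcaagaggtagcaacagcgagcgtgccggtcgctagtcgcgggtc
LDHA holds the core at 3 places, of which 2 read CACGTG, and BNIP3 at 1. Among the 9 members with a window that passed the test in any comparison described below, 3 hold ACGTG: LDHA, BNIP3 and HK2.

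Each main fit used all libraries of the groups compared. Among these fits, the p300/CBP compound against DMSO in non-induced cells had the most member calls. That order was not kept with all 6 groups in 1 fit, where this comparison had 4 member calls and induction in DMSO had 11. The share of all genes called in that fit is not given, so 4 and 11 are not a result about the members. In the main fit of the p300/CBP compound against DMSO in non-induced cells, 8 of 33 members tested fell and none rose. The threshold was an adjusted p below 0.05 (edgeR quasi-likelihood test, Benjamini-Hochberg adjusted over all genes tested). That is 24.2% of the members, where 9.89% of all 14943 genes tested passed in either direction and 6.46% passed as lower. The median log2 fold change was -0.11 over the members and 0.00 over all genes. The 8 were SLC2A1, HK2, PDK1, PGAM1, ENO1, LDHA, ADM and BNIP3. In bulk RNA, fewer cells making a transcript and less of it per cell cannot be told apart.

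BNIP3, a receptor that marks mitochondria for mitophagy (chr10:131966455-131982013, minus strand, on the files' positions, which fall on GRCh38), had 93.6, 100.1 and 88.3 CPM with the p300/CBP compound and 129, 135 and 120 CPM with DMSO in non-induced cells. All 3 treated libraries lay below all 3 DMSO libraries. Its log2 fold change was -0.47 ± 0.06 (SE, adjusted p = 0.000117). ADM encodes adrenomedullin, a peptide that widens blood vessels, and had 11.7, 9.36 and 8.15 CPM with the p300/CBP compound against 15.6, 14.6 and 12.6 CPM with DMSO. The highest treated library was close to the lowest DMSO library, and the log2 fold change was -0.58 ± 0.13 (adjusted p = 0.00738). The other 8 members of the hypoxia group tested did not pass, with log2 fold changes from -0.22 for EGLN1 and -0.21 for the vessel growth factor VEGFA to 0.28 for ANKRD37. The median of this group, 0.04, was positive while its called members were lower.

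SLC2A1, the main glucose transporter of many tumour cells (chr1:42925375-42958868, minus strand), had 133, 123 and 116 CPM with the p300/CBP compound and 153, 153 and 151 CPM with DMSO. The DMSO libraries were close together and above all treated ones, with a log2 fold change of -0.31 ± 0.06 (adjusted p = 0.00181). HK2, the hexokinase bound to mitochondria in many tumours (chr2:74833981-74893359, plus strand), had 52.7, 48.3 and 46.3 CPM against 67.8, 66.8 and 56.0 CPM with DMSO. Its log2 fold change was -0.40 ± 0.07 (adjusted p = 0.00226), whereas the other hexokinase gene, HK1, was at 117, 122 and 118 CPM against 123, 119 and 116 CPM (log2 fold change -0.02, 95% interval -0.12 to 0.08). Of the 9 upper enzymes HK2 alone passed the test.

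PDK1 encodes a kinase that switches pyruvate dehydrogenase off (chr2:172555373-172608669, plus strand). It had 25.1, 26.1 and 28.3 CPM with the p300/CBP compound and 32.8, 37.8 and 32.1 CPM with DMSO, a log2 fold change of -0.40 ± 0.08 (adjusted p = 0.00311). Its relative PDK3 was at a log2 fold change of -0.03 and did not pass.

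Lower glycolysis had the most calls, 3 of 7 enzymes. PGAM1, which moves a phosphate group within phosphoglycerate (chr10:97426191-97433444, plus strand), had 169.6, 168 and 160.2 CPM with the p300/CBP compound against 195, 193 and 194 CPM with DMSO. ENO1, the main enolase (chr1:8861000-8879190, minus strand), had 2741, 2642 and 2472 CPM against 2978, 3041 and 3099 CPM. LDHA, the enzyme that makes lactate (chr11:18394560-18408425, plus strand), had 1167, 1215 and 1111 CPM against 1263, 1308 and 1271 CPM. In all 3 genes every treated library lay below every DMSO library. In this comparison 11 members lay wholly below DMSO, among them PFKL, TPI1 and PGK1, which did not pass, and 1 lay wholly above. The share of all genes without overlap is not given, here or for the other comparisons. Such counts are therefore not a result about the members. The log2 fold changes were -0.24 ± 0.05 for PGAM1 (adjusted p = 0.0039), -0.23 ± 0.05 for ENO1 (adjusted p = 0.00498) and -0.16 ± 0.05 for LDHA (adjusted p = 0.0447). GAPDH, PGK1, ENO2 and PKM did not pass, with log2 fold changes of 0.01, -0.13, 0.09 and -0.05.

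BNIP3, SLC2A1, HK2 and ENO1 kept this call in each of 11 alternative fits, and their highest adjusted p was 0.00321, 0.0211, 0.0346 and 0.0465. The call of LDHA was lost without any 1 of the 3 non-induced DMSO libraries (adjusted p 0.106 to 0.212), that of ADM without the first or the second of them (0.0728 and 0.0519) and that of PDK1 without the second (0.0542). With all 6 groups in 1 fit the calls of LDHA (adjusted p = 0.277), ADM (0.0731), PGAM1 (0.0632) and PDK1 (0.0542) were lost, and with the replicate block that of LDHA (0.0628). The count of members called was 5 without the second non-induced DMSO library and 13 without the first non-induced p300/CBP library. Counts from alternative fits given without the share of all genes, here and elsewhere, show only how the count moved.

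**Figure D3:**
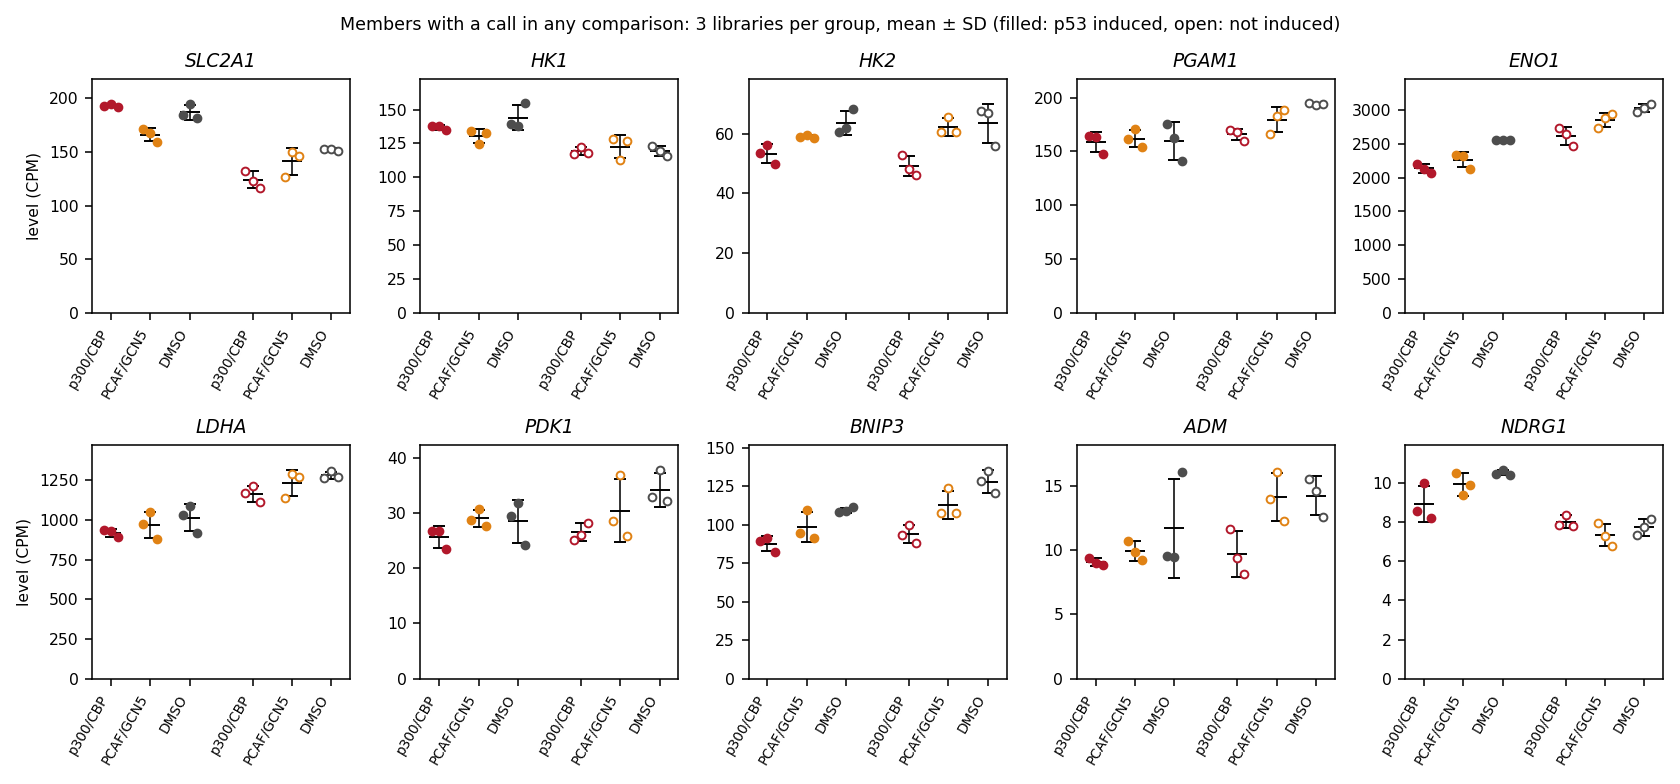
Levels in CPM of the 10 members that passed the test in any comparison, 1 point per library, with the mean and SD of 3 libraries; filled points are induced cells, open points non-induced cells, each in the order p300/CBP compound, PCAF/GCN5 compound, DMSO. In non-induced cells the p300/CBP points of BNIP3, SLC2A1, HK2, ENO1, PDK1, ADM, PGAM1 and LDHA all lie below the DMSO points.

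With p53 induced, 2 of 32 members tested fell with the p300/CBP compound against DMSO and none rose, which is 6.25% of the members against 5.98% of all 15019 genes tested (3.04% lower). The member share is thus near the background. The median log2 fold change was -0.15 over the members and 0.00 over all genes. BNIP3 had 89.2, 91.6 and 82.2 CPM with the p300/CBP compound and 108, 109 and 111 CPM with DMSO, a log2 fold change of -0.33 ± 0.07 (adjusted p = 0.0249). ENO1 had 2211, 2127 and 2075 CPM against 2554, 2557 and 2563 CPM, a log2 fold change of -0.27 ± 0.07 (adjusted p = 0.0458). Both genes thus fell with this compound in both states, in libraries that the states do not share. Both calls were lost when any 1 of the other 5 libraries was left out (adjusted p 0.0507 to 0.149 for BNIP3 and 0.0798 to 0.234 for ENO1), and both were kept without the third induced DMSO library.

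Without that library 12 of 32 members passed, 10 lower and 2 higher, where 21.2% of all genes passed (10.3% higher and 10.9% lower). The median over the members was then -0.09. Added as lower were SLC16A3, HK2, GPI, PFKP, TPI1, PDK1, PKM and LDHA, at log2 fold changes between -0.26 and -0.12. SLC16A3 exports lactate, GPI and PFKP act early in glycolysis and PKM makes pyruvate. The members added as higher were P4HA2, a collagen prolyl hydroxylase (0.35), and BNIP3L (0.11). With all 3 DMSO libraries HK2 had 53.6, 56.2 and 49.9 CPM with the p300/CBP compound against 60.5, 61.9 and 68.2 CPM with DMSO, without overlap, at a log2 fold change of -0.26 that did not pass. ADM had 9.37, 9.02 and 8.81 CPM against 9.52, 9.46 and 16.1 CPM, so the first and second DMSO libraries lay just above the treated ones. Its log2 fold change of -0.38 did not pass.

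**Figure D4:**
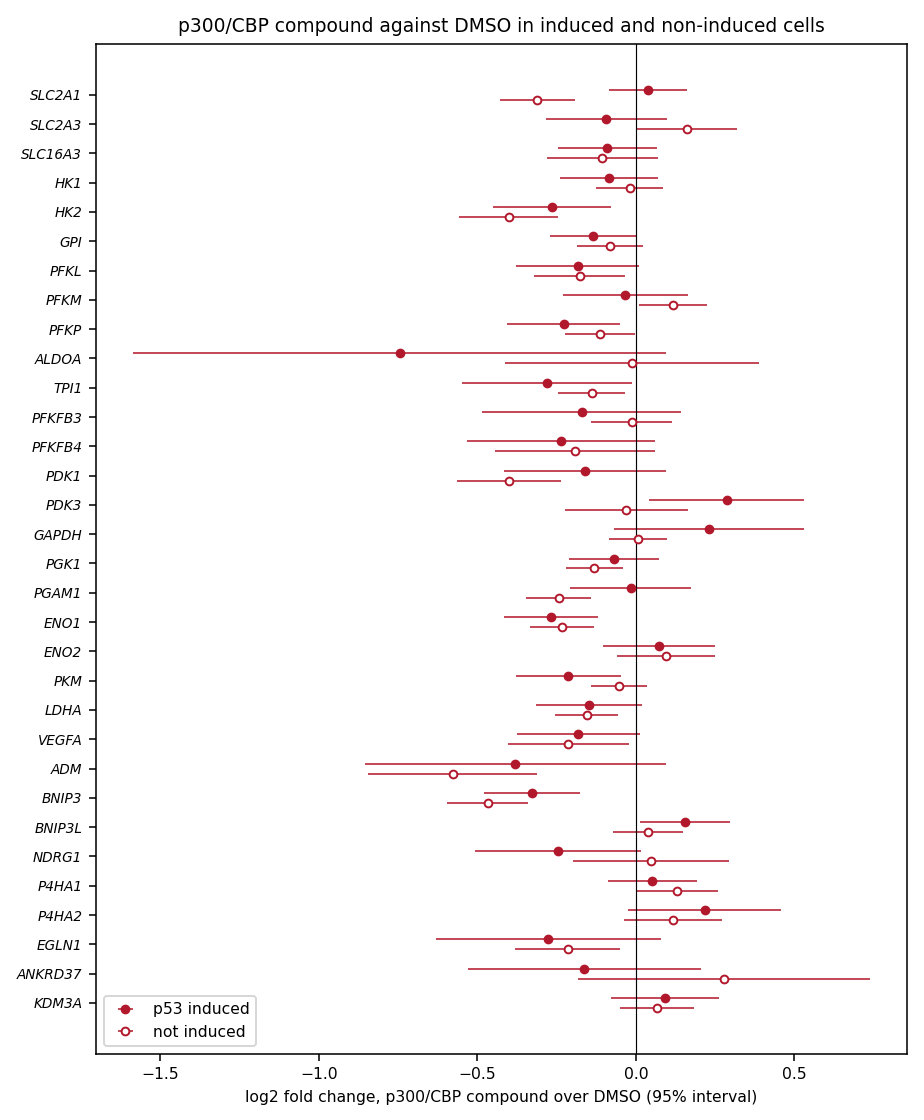
Log2 fold change of each member tested in both states, p300/CBP compound over DMSO, with its 95% interval from the fit; filled points are induced cells and open points non-induced cells. For BNIP3 and ENO1 both intervals lie below 0, while for SLC2A1 the induced value is 0.04 and the non-induced value -0.31.

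Whether the p300/CBP effect differed between induced and non-induced cells was tested directly. SLC2A1 passed, alone among 33 members, where 1.28% of all genes passed (1.09% as higher). In induced cells it had 193, 194 and 192 CPM with the p300/CBP compound and 185, 195 and 182 CPM with DMSO, which overlap. The difference between the induced and the non-induced effect was 0.36 ± 0.08 on the log2 scale (adjusted p = 0.0444). That call was lost in 11 of 17 alternatives, 9 of which leave out 1 library, with an adjusted p of at most 0.152 and the same direction in all. It was kept without the third induced DMSO library (adjusted p = 0.0065), where again 1 of 33 members passed, beside 2.73% of all genes. For BNIP3 the difference was 0.15 (95% interval -0.06 to 0.36), for HK2 0.14 (-0.12 to 0.40), for PGAM1 0.24 (0.02 to 0.45), for PDK1 0.25 (-0.06 to 0.55) and for ENO1 -0.02 (-0.21 to 0.16). None of these passed after adjustment.

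With the PCAF/GCN5 compound against DMSO in induced cells, edgeR called 0 of 33 members when these groups were fitted alone. Of all 15078 genes tested, 0.345% passed. DESeq2 also called 0 members. An unadjusted p below 0.05 in edgeR was found for 7 of the 33 members and for 1530 of the 15078 genes. Each library of SLC2A1 (172, 167 and 159.6 CPM against 185, 195 and 182 CPM with DMSO) and of ENO1 (2344, 2330 and 2135 against 2554, 2557 and 2563 CPM) lay below those of DMSO. Their log2 fold changes were -0.21 (95% interval -0.37 to -0.04) for SLC2A1 and -0.21 (-0.40 to -0.02) for ENO1, with adjusted p of 0.459 and 0.487. SLC16A3 had the most negative log2 fold change of the transporters, with 157, 109.6 and 144 CPM against 189, 182 and 161 CPM (-0.41, adjusted p = 0.424). It passed with no filter on low counts (adjusted p = 0.00355), and the phosphofructokinase gene PFKL passed as lower with all 6 groups in 1 fit (adjusted p = 0.0434). The median over the members was -0.14, beside -0.01 over all genes. Without the third induced DMSO library the count was again 0, beside 0.743% of all genes, and the median -0.09.

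In non-induced cells 0 of 33 members passed with the PCAF/GCN5 compound against DMSO, and 0.0199% of all genes passed. DESeq2 also called 0 members. An unadjusted p below 0.05 in edgeR was found for 4 of the 33 members and for 959 of 15100 genes. BNIP3 had 107.7, 124 and 107.8 CPM with the compound and 129, 135 and 120 CPM with DMSO, which overlap (log2 fold change -0.20, 95% interval -0.33 to -0.06, adjusted p = 0.779). HK2 had 60.6, 65.7 and 60.6 CPM against 67.8, 66.8 and 56.0 CPM, and ADM had 14, 16.04 and 12.3 CPM against 15.6, 14.6 and 12.6 CPM. The median over the members was -0.04. The change of this compound's effect on induction passed for 0 of 33 members and 0.0696% of all genes, and DESeq2 called 0 members. An unadjusted p below 0.05 in edgeR was found for 2 of the 33 members and for 1148 of 15813 genes. The change again passed for 0 members without the third induced DMSO library, beside 0.148% of all genes.

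Set directly against each other in non-induced cells, the compounds differed in 1 of 33 members, HK2, while 1.09% of all genes passed (0.932% lower). HK2 was lower with the p300/CBP compound than with the PCAF/GCN5 compound, at 52.7, 48.3 and 46.3 CPM against 60.6, 65.7 and 60.6 CPM, a log2 fold change of -0.34 ± 0.08 (adjusted p = 0.0459). The call was lost without library 2 or library 3 of either group (adjusted p 0.105 to 0.243). ADM (-0.53, adjusted p = 0.0869) and BNIP3 (-0.27, adjusted p = 0.111) were lower in every p300/CBP library than in any PCAF/GCN5 library and did not pass. For ENO1 the difference was -0.13 (95% interval -0.28 to 0.02), for LDHA -0.08 (-0.24 to 0.07) and for PGAM1 -0.11 (-0.26 to 0.04).

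In induced cells the compounds differed in 1 of 32 members, SLC2A1, while 4.12% of all genes passed (1.87% higher). It was higher with the p300/CBP compound, at 193, 194 and 192 CPM, than with the PCAF/GCN5 compound, at 172, 167 and 159.6 CPM, a log2 fold change of 0.24 ± 0.05 (adjusted p = 0.0158). Without any 1 of the p300/CBP libraries, or without the third PCAF/GCN5 library, the adjusted p was 0.0678 to 0.117. The second glucose transporter gene, SLC2A3, had 31.2, 30.2 and 33.5 CPM with the p300/CBP compound and 36.7, 40.9 and 37.4 CPM with the PCAF/GCN5 compound. Its log2 fold change of -0.25 ± 0.07 did not pass (adjusted p = 0.0676). For BNIP3 the difference between compounds was -0.15 (95% interval -0.30 to 0.00), for HK2 -0.13 (-0.27 to 0.00), for ENO1 -0.07 (-0.19 to 0.05) and for LDHA -0.06 (-0.19 to 0.08).

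**Figure D5:**
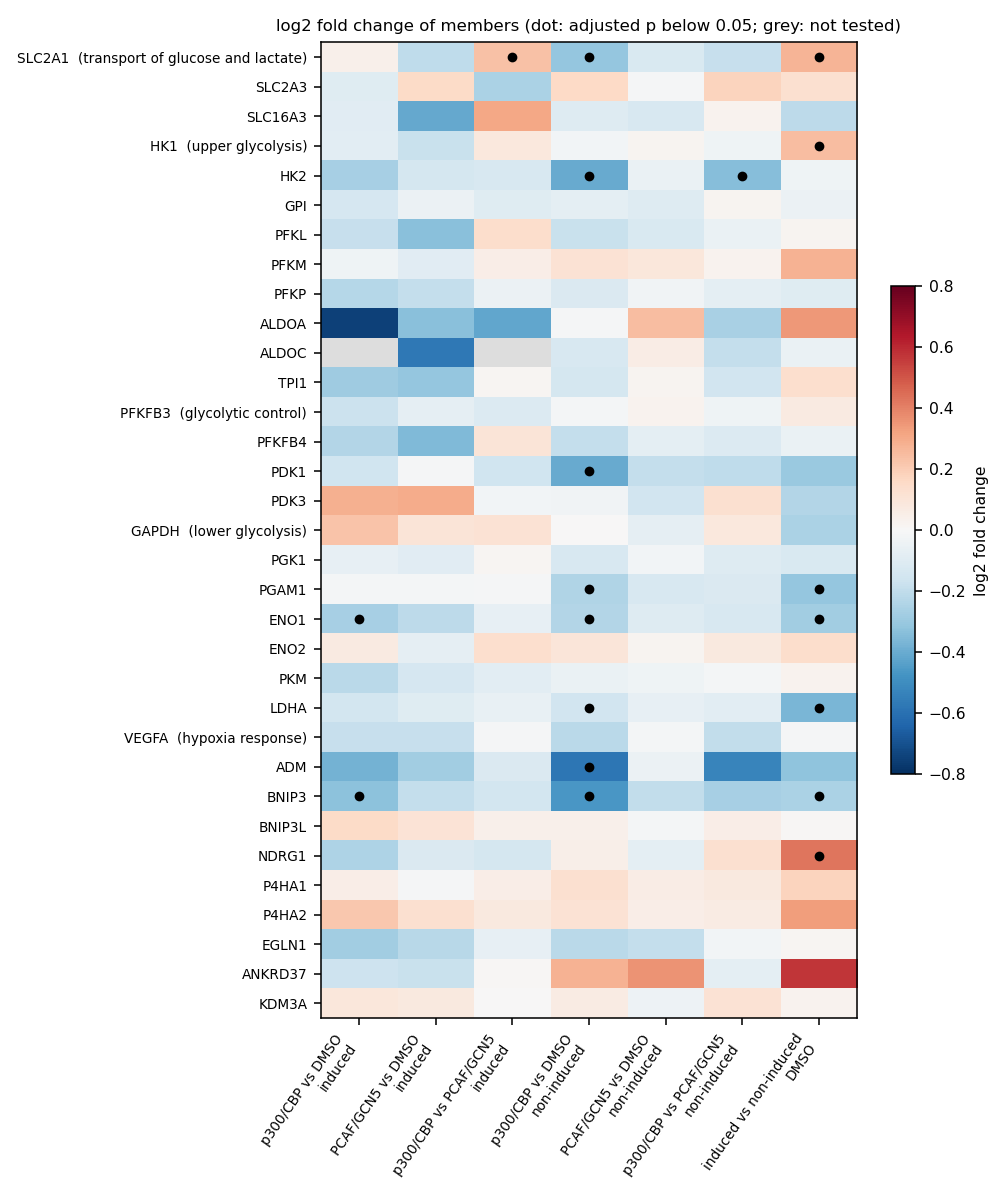
Log2 fold change of each member (rows, by role) in the 7 comparisons of 2 groups (columns); red is higher and blue lower in the group named first, dots mark an adjusted p below 0.05 and grey a gene not tested. The column of the p300/CBP compound in non-induced cells holds 8 dots, all on lower values, and both PCAF/GCN5 columns against DMSO hold none.

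Induction of the tagged p53 in DMSO, a comparison that shares its libraries with those above, changed 7 of 33 members, 3 higher and 4 lower, where 13.8% of all 15055 genes tested passed (6.01% higher and 7.77% lower). The median over the members was 0.01, as over all genes, but without the third induced DMSO library it was -0.07 over the members and 0.00 over all genes. SLC2A1 was higher, with 185, 195 and 182 CPM in induced cells and 153, 153 and 151 CPM in non-induced cells (log2 fold change 0.27 ± 0.05, adjusted p = 0.0114). HK1 had 139, 138 and 155 CPM against 123, 119 and 116 CPM (0.25 ± 0.07, adjusted p = 0.0489). NDRG1, a stress-response gene raised by low oxygen, had 10.5, 10.7 and 10.4 CPM against 7.32, 7.73 and 8.17 CPM (0.43 ± 0.11, adjusted p = 0.0303). Its call was lost in 8 of 11 alternatives, that of HK1 in 6 and that of SLC2A1 in 3. In each of these genes the groups did not overlap. Of all members tested, 7 lay wholly above and 7 wholly below in induced cells, called or not. Without the share of all genes these counts are not a result about the members.

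The members that fell on induction were 3 enzymes of lower glycolysis and BNIP3. LDHA had 1033, 1086 and 919.6 CPM in induced cells and 1263, 1308 and 1271 CPM in non-induced cells (log2 fold change -0.37 ± 0.07, adjusted p = 0.00994). PGAM1 had 176, 162 and 141 CPM against 195, 193 and 194 CPM (-0.31 ± 0.08, adjusted p = 0.0264). ENO1 (-0.28 ± 0.06, adjusted p = 0.0181) and BNIP3 (-0.26 ± 0.06, adjusted p = 0.0288) had the levels given above, without overlap between groups. Of 7 enzymes in lower glycolysis 3 passed, all lower, and the group's median log2 fold change was -0.25. Without the third induced DMSO library 5 of the 7 passed, all lower, and the median was -0.10. All 7 member calls were lost without any 1 of the 3 non-induced DMSO libraries (0 members called each time, adjusted p 0.0532 to 0.177). Without the first or the second induced DMSO library 3 and 4 members were called. Without the third induced DMSO library 17 members passed, 6 higher and 11 lower, beside 32.5% of all genes (15.3% higher and 17.2% lower). EGLN1, an oxygen-sensing prolyl hydroxylase, then passed as lower at -0.20, against 0.02 with all libraries.

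Within gene families the order of the shares was the same in all 18 libraries. HK1 made up 71.2% ± 0.98 of the summed HK1 and HK2 level per length with the p300/CBP compound, 68.0% ± 1.06 with the PCAF/GCN5 compound and 68.6% ± 0.33 with DMSO in induced cells. In non-induced cells it made up 70.1% ± 1.65, 65.4% ± 2.68 and 64.5% ± 1.82 in the same order (SD, n = 3 each, no test). Among the phosphofructokinase genes PFKP led with 47.5% to 56.4% in every library, ahead of PFKM and PFKL. PFKM had 33.6% ± 1.01, 32.8% ± 1.55 and 30.8% ± 0.91 in induced cells and 29.5% ± 2.45, 28.01% ± 1.51 and 25.99% ± 1.12 in non-induced cells, again with the p300/CBP compound, the PCAF/GCN5 compound and DMSO in that order. ENO1 made up 97.4% to 98.7% of the enolase level and SLC2A1 81.3% to 89.8% of the SLC2A1 and SLC2A3 level in all 18 libraries.

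Wider lists gave the surroundings of these genes: 36 other genes of glucose and pyruvate metabolism and 40 other hypoxia genes. With the p300/CBP compound in non-induced cells, 1 of 22 tested glucose genes fell (PGAM5, -0.31) and of 38 hypoxia genes 4 rose and 1 fell. These are 4.55% and 13.2% of the lists, beside 9.89% of all genes. Those higher were BHLHE40 (0.50), a repressor raised by low oxygen, CCNG2 (0.34), the mTORC1 inhibitor DDIT4 (0.27) and the glycogen branching enzyme GBE1 (0.18, lost in 10 of 11 alternatives). The transferrin receptor gene TFRC was lower (-0.31). BHLHE40 and TFRC kept their call in each of the 11 alternatives, and the other 4 genes each lost it without at least 1 library. With the same compound in induced cells, TIGAR, a p53 target that lowers glycolytic flux (0.90), and the pentose phosphate enzyme TKT (0.53) rose and PGAM5 fell (-0.40), of 23 tested. Of 38 hypoxia genes, EPAS1 (0.83) and HIF1A (0.31), which encode hypoxia-inducible factor subunits, and BHLHE40 (0.72) rose, while ANGPTL4, a lipase inhibitor (-0.70), and the collagen cross-linking enzyme LOXL2 (-0.42) fell. These are 13.0% and 13.2% of the lists, beside 5.98% of all genes. Without the third induced DMSO library 2 glucose genes were higher and 3 lower (21.7%), and 8 hypoxia genes were higher and 5 lower (34.2%), beside 21.2% of all genes. HIF1A had 263, 271 and 268 CPM with the p300/CBP compound and 226, 229 and 190.2 CPM with DMSO in induced cells. Its call was lost without any 1 p300/CBP library or without the first DMSO library (adjusted p 0.0787 to 0.204). TIGAR, BHLHE40 and ANGPTL4 kept their calls in each of the 11 alternatives, and EPAS1, TKT, PGAM5 and LOXL2 each lost theirs without at least 1 p300/CBP library (adjusted p up to 0.201).

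With the PCAF/GCN5 compound, edgeR called 0 of 61 of these genes in non-induced cells, and DESeq2 called 0. An unadjusted p below 0.05 in edgeR was found there for 5 of the 61, beside 959 of all 15100 genes. In induced cells edgeR called 1, ANGPTL4 (-1.15), beside 0.345% of all genes. The count in induced cells was again 1 without the third induced DMSO library, beside 0.743% of all genes. Between the compounds in induced cells, 5 of 38 hypoxia genes were higher with the p300/CBP compound and 2 were lower, among them EPAS1 (0.74), BHLHE40 (0.63), ANGPTL4 (0.44) and STC1 (-0.41). Of 22 glucose genes, TKT (0.47) and TIGAR (0.44) were higher and PDP1 (-0.22) was lower. These are 18.4% of the hypoxia and 13.6% of the glucose genes, beside 4.12% of all genes. The calls of STC1, TIGAR and PDP1 were each lost without any 1 of the 3 p300/CBP libraries (adjusted p up to 0.227). In non-induced cells edgeR called 0 of the 61 between compounds, and DESeq2 called 0. An unadjusted p below 0.05 in edgeR was found there for 1 glucose gene and 8 hypoxia genes, beside 2254 of all 15131 genes. Induction in DMSO raised 3 of 23 glucose genes, PDP1 (0.93), TIGAR (0.69) and PDHB (0.24). Of 38 hypoxia genes 8 rose and 3 fell on induction, led by ANGPTL4 (1.95), STC1 (-0.86), TFRC (-0.80), GBE1 (0.73) and EPAS1 (0.61). These are 13.0% of the glucose and 28.9% of the hypoxia genes, beside 13.8% of all genes. Without the third induced DMSO library 7 glucose genes were higher and 4 lower (47.8%), and 15 hypoxia genes were higher and 6 lower (55.3%), beside 32.5% of all genes. ANGPTL4, TFRC, GBE1 and PDP1 kept these calls in each of the 11 alternatives, and TIGAR, PDHB, STC1 and EPAS1 each lost theirs without any 1 of the 3 non-induced DMSO libraries (adjusted p 0.0521 to 0.22).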

How the data were processed

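Per the labels' protocols, total RNA was made into libraries with a directional kit. The submitters' processing notes name StringTie and DESeq2, with no versions; aligner, build and counting are not given in the sources used here. The authors deposited 4 tables of raw counts per gene, which were used as counts. In 1 of them the lines of ANK2 are broken, so the DMSO counts there were used only to compare intact lines. Non-induced DMSO counts were taken from the second table of non-induced cells (0 of 363732 values compared between tables differed). ANK2 and 24 per-sample columns were not used. Gene positions fell on GRCh38 (79.6% of 58515 identifiers as in GENCODE release 29).

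The groups of each comparison were fitted alone in edgeR 4.0.16 (R 4.3.3): TMM, filterByExpr, glmQLFit and a 2-sided quasi-likelihood F test, Benjamini-Hochberg adjusted over all genes tested, called below 0.05. SE is the log2 fold change divided by the square root of F, and 95% intervals use it. Floors of 3 counts cover counting error only. Alternatives were DESeq2 size factors in edgeR, no filter on low counts, the Wald test of DESeq2 1.42.0, all 6 groups in 1 fit, a replicate block, and each library left out. In simulated data, 42% to 90% of 1.5-fold changes passed over the 9 comparisons, and 3.17% to 10.5% of calls were false. The share of false calls was highest for the p300/CBP compound against DMSO in induced cells. Changes smaller than 1.5-fold were not simulated, so a gene that did not pass is not shown to be unchanged. Members and lists were chosen with earlier results of these data known. Values in every library were given for members called in any comparison, and wider-list genes called were named, up to 5 per comparison and list, apart from results that are not reported here; other values were chosen after they were seen. The labels do not say what replicate numbers mark. Every same-numbered correlation of deviations over 12261 genes passed a set bound of 0.1 only between non-induced PCAF/GCN5 and DMSO cells. They were 0.112 to 0.176 there, and 0 members were called with or without the block. Whether these libraries were paired was not tested further.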

Additional observations from a re-analysis of the deposited data

Results flagged for a closer look

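For 3 results the effect of a compound against DMSO differed between induced and non-induced cells by the interaction test of edgeR. For SLC2A1 the p300/CBP effect was 0.36 higher on the log2 scale in induced cells than in non-induced cells (0.04 against -0.31, adjusted p = 0.0444). ANGPTL4, which is in the wider hypoxia list and not a member, differed by -0.84 for the p300/CBP compound (adjusted p = 0.00174) and by -1.32 for the PCAF/GCN5 compound (adjusted p = 7.9e-05). In induced cells ANGPTL4 had 91.8, 92.8 and 89.7 CPM with the p300/CBP compound, 73.2, 64.9 and 66.5 CPM with the PCAF/GCN5 compound and 138, 139.6 and 165 CPM with DMSO. In non-induced cells it had 44.6, 43.7 and 38.4 CPM, 45.9, 42.0 and 41.0 CPM, and 39.8, 37.9 and 34.6 CPM in the same order. Both ANGPTL4 results use the same DMSO libraries.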

How the results depend on the processing

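The main counts of members called were 2 for the p300/CBP compound in induced cells, 0 for the PCAF/GCN5 compound there, 1 between compounds there, 8 for the p300/CBP compound in non-induced cells, 1 between compounds there, 7 for induction in DMSO and 1 for the p300/CBP interaction. With no filter on low counts they were 7, 1 and 2 in the induced comparisons and 3 between compounds in non-induced cells. With all 6 groups in 1 fit they were 6, 1 and 0 in induced cells, 4 for the p300/CBP compound in non-induced cells, 11 for induction and 0 for the interaction. With the replicate block they were 0 for the p300/CBP compound and 2 between compounds in induced cells, 0 between compounds in non-induced cells, 3 for induction and 0 for the interaction. DESeq2 gave 2 between compounds in non-induced cells. Same-numbered correlations all passed the bound of 0.1 in only 1 of 15 pairs of groups. Elsewhere they ran from -0.338 to 0.385, and in 1 of the 15 every library correlated best with its own number.

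Leaving out 1 library gave 0 to 12 (p300/CBP compound) and 0 to 2 (between compounds) in induced cells, 5 to 13 and 0 to 2 for the same comparisons in non-induced cells, 0 to 17 for induction and 0 to 1 for the p300/CBP interaction. Over all genes, calls with the p300/CBP compound in induced cells were 898, against 2106 without the filter, 2214 with all 6 groups, 530 with the block and 3234 without the third induced DMSO library. For the PCAF/GCN5 compound they were 52, against 541, 352 and 107 with DESeq2. In non-induced cells the PCAF/GCN5 count was 3, and 14 with the block. Of 226 alternatives for the 20 called member results, 147 kept direction and threshold, 79 kept direction only and 0 reversed. Of 3415 for the 275 uncalled ones, 57 passed, 1 of them (EGLN1, induction) with the other sign. The cause was not tested. Depth limits CA9, CA12, EGLN3 and ALDOC.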
